A study of Mus musculus with 5 samples.

Results

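The genes described here encode 31 enzymes that make nucleotides and the one-carbon units used to build them, taken by symbol from a fixed list with purine, pyrimidine, deoxynucleotide, folate and serine arms. Of these, 30 had at least 1 probe set naming a single gene, among 18194 genes named in this way, and Impdh2 is not analysed here. They were measured in germinal centre B cells purified by FACS from spleens of 12-week-old C57BL/6 littermates, which had received sheep red blood cells as antigen (SRBC) 7 days earlier. The WT group is 3 arrays of Cg1-Cre cells, sorted as eGFP-negative. The REL group is 2 arrays of relfl/flCg1-Cre cells, sorted as eGFP-positive, in which both copies of Rel, encoding the NF-kB subunit c-Rel, are floxed. Both groups carry the Cre, which is driven by the immunoglobulin gamma-1 constant region locus and so acts in B cells after activation, and the eGFP gate differs between the groups together with the genotype. Each array started from about 10 ng of total RNA, which was amplified as cDNA. Whether the 5 arrays stand for 5 animals is not stated, so p-values cover sample-to-sample spread that could be technical.

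Germinal centre B cells divide very rapidly, and each division needs a full set of purine and pyrimidine nucleotides for RNA and DNA. Purines are assembled step by step on a ribose phosphate donor (PRPP), with carbon atoms supplied by folate cofactors, while pyrimidines are built as a ring first and joined to PRPP afterwards. Folate cofactors receive their carbon mostly from serine, which cells import or make from a glycolytic intermediate, and ribonucleotide reductase turns ribonucleotides into the deoxynucleotides that DNA replication consumes. Many of these enzymes are known targets of MYC or of the E2F factors, which couple their supply to growth and S phase.

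The sequences just before the start sites of 4 genes are shown, each gene with both REL arrays below every WT array. Phgdh and Cad had the smallest p-values, and Atic and Paics carry an E-box (CACGTG, the site that MYC and related factors recognise). Each sequence is the 250 bases before the start site in RefSeq (GRCm38.p6), 5′ to 3′ on the gene's own strand. Bases are in lower case, with an E-box in capitals. For Cad the start site of this window lies inside the annotated gene, downstream of its outermost start, so part of the stretch shown belongs to the gene.
Phgdh (chr3:98339970-98340219, minus strand): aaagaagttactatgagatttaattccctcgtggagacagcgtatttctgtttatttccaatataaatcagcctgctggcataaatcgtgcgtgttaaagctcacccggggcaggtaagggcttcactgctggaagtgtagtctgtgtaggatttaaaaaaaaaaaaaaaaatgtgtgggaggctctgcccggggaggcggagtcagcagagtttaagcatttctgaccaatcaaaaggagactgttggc
Cad (chr5:31054530-31054779, plus strand): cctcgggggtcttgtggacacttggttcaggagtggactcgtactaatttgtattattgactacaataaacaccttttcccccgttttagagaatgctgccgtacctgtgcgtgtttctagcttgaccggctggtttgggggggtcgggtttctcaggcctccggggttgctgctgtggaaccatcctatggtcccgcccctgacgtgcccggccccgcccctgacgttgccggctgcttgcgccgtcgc
Atic (chr1:71556906-71557155, plus strand): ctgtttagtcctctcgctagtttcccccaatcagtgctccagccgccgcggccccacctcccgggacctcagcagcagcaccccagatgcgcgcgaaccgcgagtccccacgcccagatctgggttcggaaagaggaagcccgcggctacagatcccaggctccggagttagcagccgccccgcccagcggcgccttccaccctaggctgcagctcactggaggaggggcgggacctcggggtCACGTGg
Paics (chr5:76951052-76951301, plus strand): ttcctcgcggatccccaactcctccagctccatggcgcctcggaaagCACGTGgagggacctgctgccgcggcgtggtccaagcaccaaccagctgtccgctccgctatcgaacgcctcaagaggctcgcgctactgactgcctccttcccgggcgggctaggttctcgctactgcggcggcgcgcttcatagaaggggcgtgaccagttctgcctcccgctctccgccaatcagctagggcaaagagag
The E-box of Atic spans positions -7 to -2 before its start, and that of Paics positions -203 to -198. RefSeq windows of 300 bases, reaching 50 bases past the start, were found for 28 members (31 windows, since 3 genes had 2 windows each). An E-box was found in 3 of the 31 windows (Atic, Paics and Tyms), or 9.68%, against 7.15% of all 32851 windows. Of these genes Tyms had both REL arrays above every WT array. An E2F motif (TTTGGCGC or TTTCCCGC, either strand) was found in 2 (Ppat and Prps2), or 6.45%, against 1.56%. Prps2 also had both REL arrays below every WT array. Its motif lies past the start site, at positions 34 to 41, and its sequence is not shown. The kappaB motif bound by NF-kB dimers was found in 0 of the 31 windows and in 4.51% of all windows. The motifs were searched on both strands and none of the matches overlap. Paics and Ppat, which catalyse different steps of the same purine pathway, are transcribed in opposite directions and overlap at their 5′ ends: the start of Paics lies 276 bases inside Ppat, so the Paics stretch shown and its E-box lie within the Ppat gene.

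The trimmed mean of the deposited signals (2% removed at each end) was 500 on every array. Median signals differed, at 40.7, 41.1 and 54.6 (WT) against 48.1 and 30.1 (REL). The ratio of the 3′ to the 5′ actin control probe set was 2.45 in WT 3 and 1.58 to 1.73 on the other arrays. Signals of 12 germinal centre B cell markers summed to 67485 to 81234 in WT and 69770 to 78480 in REL. Among them only Rgs13 lay lower on both REL arrays than on every WT array, where 14.6% of all genes did without the filter. It read 4960, 6058 and 6022 (WT) against 4514 and 3321 (REL), and none of the 12 lay higher. Signals of 8 T cell markers summed to 4950 to 5453 in WT and 5379 to 6538 in REL. Most of the T cell sum was Cd2, at 4396 to 5725, while Cd3d lay between 4.99 and 8.39 on every array, and Cd247 read 307, 16.3 and 95.3 (WT) against 630 and 168 (REL). The arrays of the 2 groups overlapped for each T cell marker. The 5 plasma cell markers summed to 17808 to 20836 in WT and 17278 to 19114 in REL. Of these Sdc1 lay lower and Xbp1 higher on both REL arrays than on every WT array. Summed markers of 2 other cell types stood apart between the groups. The macrophage and monocyte summed signal over 17 genes was 1359 to 2448 in WT and 7283 to 8781 in REL. Of the 17, 12 lay higher on both REL arrays than on every WT array, against 8.06% of all genes without the filter. C1qc and Vcam1 were below 3 on every WT array, and Adgre1 lay lower in REL. The 4 erythroid markers summed to 144 to 563 in WT and 53.1 to 113 in REL. Hbb-b2 and Slc4a1 were lower on both REL arrays and Hba-a1 higher, against 14.6% and 8.06% of all genes without the filter. The part of these cells in the values below was not tested. Rel itself had signals of 492, 134 and 206 (WT) against 18.6 and 85.2 (REL), and which exons its probe set covers is not given in the sources used here.

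Nucleotide and one-carbon genes had a median difference close to that of all genes, with a few members lower on both REL arrays. All 30 passed the filter on dim probe sets, at which 12082 genes were tested. The dimmest WT signal of any member was 53.4, above the filter level of 23.1, so none passed through the REL arrays alone. The median difference, REL minus WT on the log2(signal + 16) scale, was -0.08 over the 30 members and -0.07 over all genes. Of the members 22 (73.3%) lay below 0 against 56.8% of all genes, and 8 lay above 0 against 43.2%. Around the median of all genes they split into 16 below and 14 above. Differences under -0.5 were found in 4 members (Prps1, Cad, Mthfd1l and Phgdh), against 19% of all genes, and over 0.5 in 1 (Adss), against 13%. In 20 of 30 the difference was at most 0.25 in size. In these bulk samples fewer cells expressing a gene and less RNA per cell cannot be told apart.

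No member was called by limma at an adjusted p under 0.05, where 0.00828% of all genes (1 gene) were called, and the members' adjusted p ran from 0.372 to 1.00. At an unadjusted p under 0.05, 2 of 30 members (6.67%) were lower in REL, Phgdh and Cad, against 4.99% of all genes, and 0 were higher, against 3.24%. The 2 REL arrays were both under all 3 WT arrays for 7 members (23.3%), against 14.3% of all genes. These were Prps2, Paics, Atic and Gmps of the purine arm, Cad, Mthfd2 and Phgdh. Tyms was the single member with both REL arrays above every WT array (3.33%, against 9.53% of all genes). When each array was centred on its own median, the all-gene median went from -0.07 to 0.10, and 10 members lay below 0 and 20 above. With that centring the arrays of 2 members, Prps1 and Cad, did not overlap with REL lower (7.41% of all genes) and those of 3, Umps, Ctps and Tyms, with REL higher (12.6%).

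**Figure D1:**
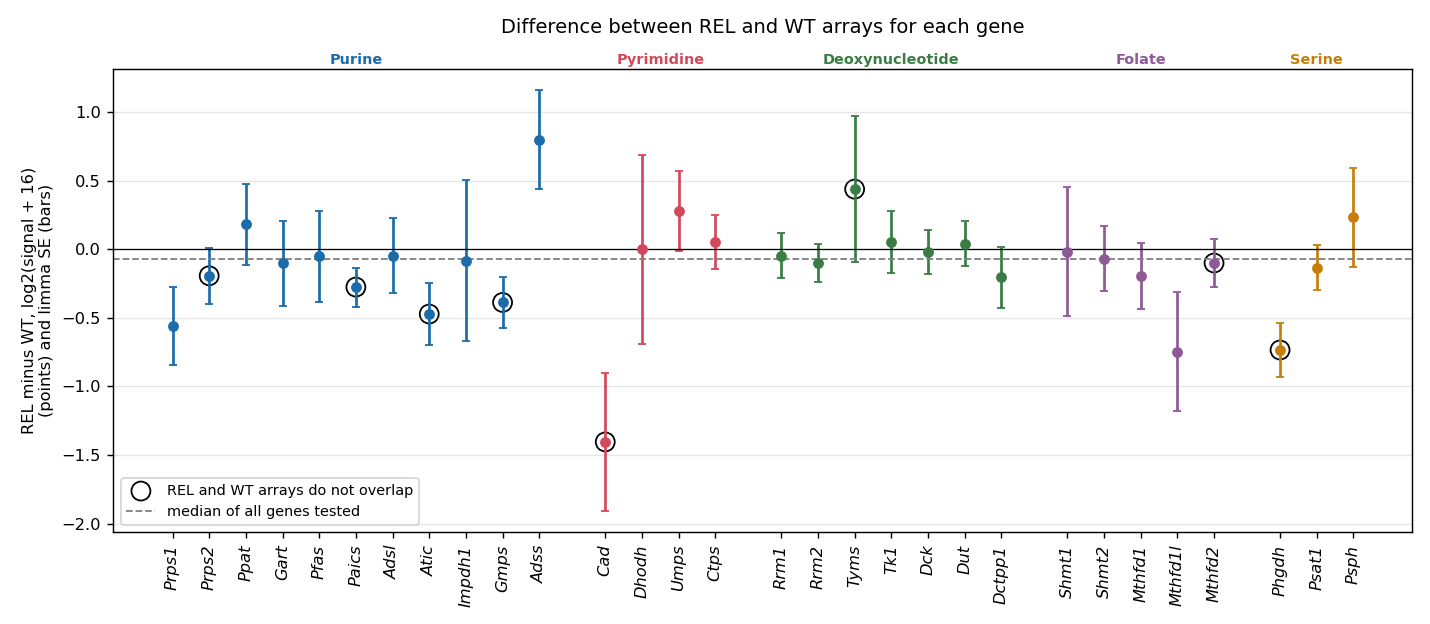
Difference between REL and WT arrays (y axis, log2 units after adding 16 to the signal) for each of the 30 genes (x axis, by arm); points are limma estimates, bars are limma standard errors, and rings mark genes whose REL and WT arrays do not overlap. Most points lie near the median of all genes (dashed line, -0.07), with Cad at -1.40 the lowest and Adss at 0.80 the highest.

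The serine arm makes serine from 3-phosphoglycerate. Phgdh, the first and committing enzyme, had signals of 5462, 5676 and 6063 (WT) against 2842 and 4155 (REL). The 3 WT arrays lay close together and both REL arrays lay below them, REL 1 further than REL 2. The difference was -0.73 (SE 0.20), or 0.60 times the WT level, with an unadjusted p of 0.0042 and a limma adjusted p of 0.372. Phgdh ranked 135th of 12082 genes by p. Against the WT mean REL 1 alone stood at -1.01 and REL 2 alone at -0.46, so the size depended on the array, and with median centring of the arrays the value was -0.56, with an unadjusted p of 0.132 and overlapping arrays. Its 4 probe sets all pointed lower, at -0.73, -0.86, -0.11 and -0.78, and in 3 of them the arrays did not overlap. All 4 carry the suffix that Affymetrix gives to sets whose probes can match other sequences, so signal shared with near-identical copies cannot be told apart.

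The next enzymes of the arm did not follow Phgdh to the same extent. Psat1, the phosphoserine aminotransferase, had signals of 6671, 7982 and 7716 (WT) against 5984 and 7671 (REL), a difference of -0.13 (SE 0.17). REL 1 lay below the WT range and REL 2 within it, and its second probe set gave -0.13 as well. Psph, the phosphatase that releases serine, read 943, 1517 and 826 (WT) against 1532 and 1010 (REL), a difference of 0.23 (SE 0.36), with REL 1 just above the WT range. Whether Phgdh differed from Psat1 and Psph in its response was not tested.

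The pyrimidine arm held the member with the largest difference. Cad, the large enzyme that carries out the opening steps of pyrimidine synthesis and a textbook MYC target, had signals of 728, 996 and 955 (WT) against 566 and 183 (REL). The 2 REL arrays were both under the WT range, and REL 2 was far lower than REL 1. The difference was -1.40 (SE 0.50), or 0.378 times the WT level, with an unadjusted p of 0.0194 and a limma adjusted p of 0.486. Without REL 1 it was -2.18 (limma adjusted p = 0.119) and without REL 2 it was -0.63 (unadjusted p = 0.167), so much of the difference came from 1 array. A second Cad probe set gave 583, 596 and 455 (WT) against 433 and 204 (REL), a difference of -0.83, again with REL 2 lowest. The remaining one, below the filter, gave -0.47.

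For the later pyrimidine enzymes no brightest probe set had both REL arrays on 1 side of the WT range. Dhodh, the mitochondrial enzyme that oxidises dihydroorotate, had signals of 252, 262 and 284 in WT, 610 in REL 1 and 110 in REL 2. The REL arrays thus lay far outside the narrow WT range on opposite sides, and the mean difference of 0.00 (SE 0.69) hides this. Its second probe set did not repeat the split, with 405, 98.9 and 223 (WT) against 296 and 99.5 (REL). Umps, which completes UMP, stood at 0.28 (SE 0.29) and Ctps, the CTP synthase, at 0.05 (SE 0.20), with overlapping arrays in both. For Umps both REL arrays lay within the WT range, and its other probe sets past the filter gave -0.04 and -0.22.

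In the purine arm 9 of 11 members lay below 0, with a median of -0.10, and the groups did not overlap, with REL lower, in 4, against 56.8% of all genes below 0 and 14.3% without overlap. With median centring of the arrays the median of this arm was 0.067. Paics, a bifunctional enzyme of the middle of the pathway, had signals of 7507, 7366 and 8058 (WT) against 6099 and 6518 (REL), a difference of -0.28 (SE 0.14, limma adjusted p = 0.664). All 3 Paics probe sets pointed lower, at -0.28, -0.21 and -0.09, without overlap in 2. Gmps, which converts XMP to GMP, read 3697, 3342 and 3728 (WT) against 2740 and 2732 (REL). Its REL arrays were nearly equal and the difference was -0.39 (SE 0.19, limma adjusted p = 0.643). One of its other probe sets gave -0.46 and the dimmest gave 0.84, both with overlapping arrays. With the mean of its probe sets Gmps stood at -0.0026.

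Atic, which closes the purine ring with a formyl group from folate, read 3018, 4052 and 3227 (WT) against 2112 and 2840 (REL), a difference of -0.47 (SE 0.23, limma adjusted p = 0.643). Its second probe set went the other way without overlap, with 250, 231 and 195 (WT) against 383 and 513 (REL) (0.94), so the direction of Atic depended on the probe set and the mean of both gave 0.23. Prps2, a PRPP synthetase, read 3841, 3213 and 2991 (WT) against 2970 and 2849 (REL), a difference of -0.19 (SE 0.20) with the REL arrays barely under the lowest WT array. Another Prps2 probe set gave 1373, 1253 and 1318 (WT) against 769 and 544 (REL), again without overlap and by a wider margin, and the remaining one gave -0.07. The isozyme Prps1, X-linked like Prps2, stood at -0.56 (SE 0.29). It had 1852 and 1165 in REL and 1812 as the lowest WT signal, so that REL 1 fell inside the WT range.

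For the other purine genes the arrays of the 2 groups overlapped in the brightest probe set. Adss, which commits IMP to AMP, had the highest difference of all members, 0.80 (SE 0.36, unadjusted p = 0.0518), from signals of 1052, 2138 and 976 (WT) against 2002 and 2576 (REL). WT 2 lay between the REL arrays, and without it the difference was 1.15 (limma adjusted p = 0.596). Ppat, the enzyme that commits PRPP to purine synthesis, stood at 0.18 (SE 0.30), Gart at -0.10 (SE 0.31), Pfas at -0.05 (SE 0.33) and Adsl at -0.05 (SE 0.27). A second Gart probe set gave 725, 934 and 1114 (WT) against 157 and 632 (REL), at -1.47 and without overlap, while the brightest read 1272, 1113 and 1276 (WT) against 1393 and 921 (REL). Impdh1, an IMP dehydrogenase, was dim, between 53.4 and 140 on the 5 arrays, at -0.08 (SE 0.58).

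**Figure D2:**
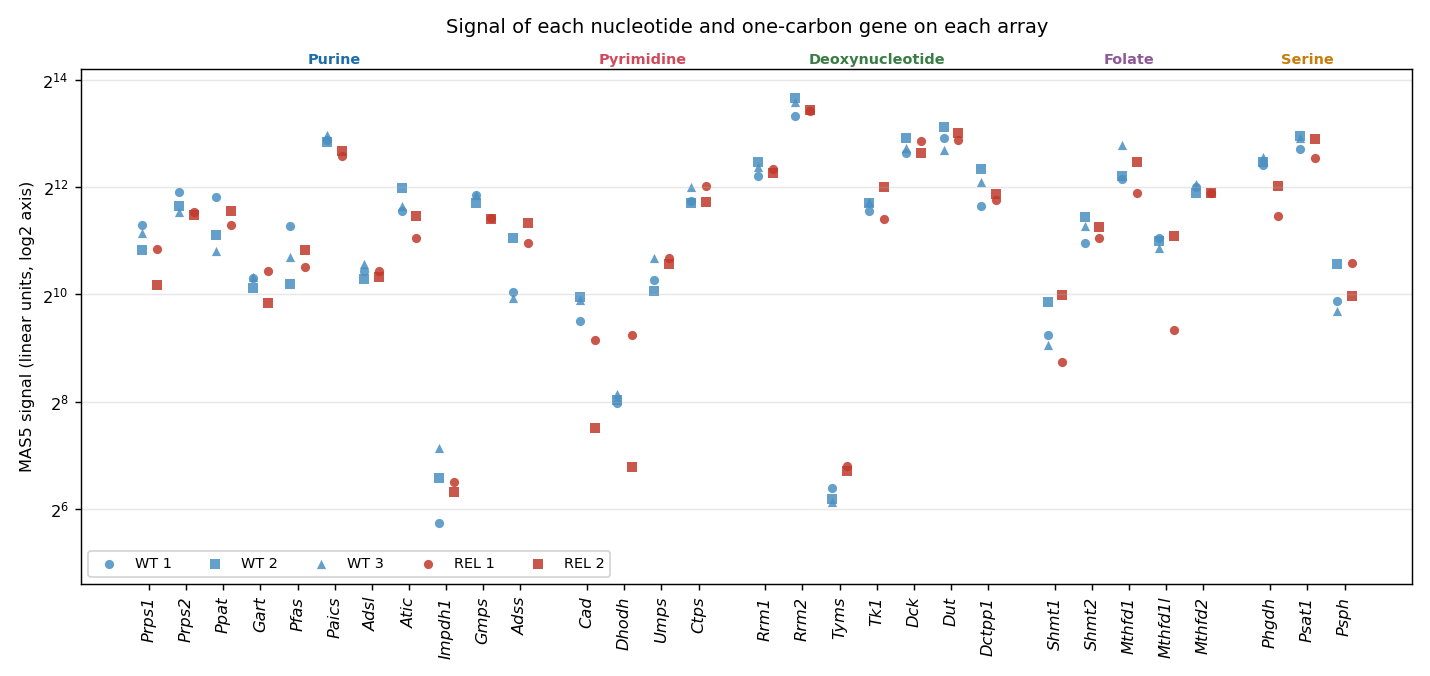
Signal of each of the 30 genes (x axis, by arm) on each array (y axis, MAS5 signal, log2 axis); blue marks are the 3 WT arrays and red marks the 2 REL arrays. Phgdh, Gmps and Paics show both REL arrays under a tight WT group, Cad and Mthfd1l show 1 REL array far lower than the other, and the REL arrays of Dhodh lie on opposite sides of WT.

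The deoxynucleotide arm had the smallest median spread within groups of the 5 arms. Its 7 members had a median difference of -0.02, with 3 above 0 and 4 below. Rrm1, the large subunit of ribonucleotide reductase, read 4762, 5645 and 5289 (WT) against 5158 and 4940 (REL), a difference of -0.05 (SE 0.16). Rrm2, the small subunit made in S phase, read 10255, 12957 and 12329 (WT) against 10916 and 11053 (REL), at -0.10 (SE 0.14). In the brightest probe set of both subunits the 2 REL arrays lay inside the WT range. Dck, the salvage kinase for deoxycytidine, stood at -0.02 (SE 0.16), Dut, which keeps dUTP out of DNA, at 0.04 (SE 0.16), and Dctpp1, which hydrolyses dCTP and modified forms of it, at -0.21 (SE 0.22). Tk1, the S-phase thymidine kinase, read 3007, 3354 and 3366 in WT, 2731 in REL 1 and 4134 in REL 2, so the REL arrays lay on opposite sides of WT and the difference was 0.05 (SE 0.22).

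Tyms, which makes thymidylate, was measured here only by dim single-gene probe sets, while 1 probe set shared with its pseudogene was not used. The brightest read 84.3, 72.5 and 70.5 (WT) against 111 and 105 (REL). The REL arrays lay above every WT array, and the difference was 0.44 (SE 0.53, limma adjusted p = 0.892), with a standard error larger than the difference itself. Its other probe sets past the filter gave -0.28 and 0.53. Secondary probe sets of this arm also departed from the brightest ones. That of Dut gave 1166, 1752 and 1260 (WT) against 425 and 344 (REL) (-1.80), and with the mean of its probe sets Dut stood at -0.88 (limma adjusted p = 0.370). The other Rrm1 probe sets gave -0.69, with REL below every WT array, and -0.43, with overlapping arrays. Those for Rrm2 gave -0.42, with REL below every WT array, and 0.55, with overlapping arrays. For Dck they gave -0.49, again with REL below every WT array, and 0.46, with overlapping arrays. Over all probe sets past the filter, REL lay below every WT array in 13.5%.

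In their brightest probe sets all 5 members of the folate arm lay below 0, against 56.8% of all genes. Their median was -0.10, which became 0.069 with median centring, and the REL arrays disagreed in this arm. With the mean of probe sets the arm median was -0.02. Shmt2 (0.18) and Mthfd2 (0.16) were then above 0, while Shmt1, Mthfd1 and Mthfd1l stayed below. Mthfd1l, the mitochondrial enzyme that releases formate, read 2120, 2035 and 1860 in WT, 645 in REL 1 and 2175 in REL 2. REL 1 was far below the WT range and REL 2 just above it, and the difference of -0.75 (SE 0.43) became 0.12 without REL 1. Shmt1, the cytosolic serine hydroxymethyltransferase, read 605, 934 and 533 in WT, 430 in REL 1 and 1014 in REL 2, a mean difference of -0.02 (SE 0.47). Its mitochondrial counterpart Shmt2 stood at -0.07 (SE 0.24) with both REL arrays within the WT range. The other Shmt2 probe sets gave 0.09, 0.42 and 0.28, each with overlapping arrays.

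Mthfd1, the cytosolic trifunctional folate enzyme, read 4530, 4732 and 7045 (WT) against 3819 and 5643 (REL), at -0.20 (SE 0.24). Its other probe sets gave -0.47, with REL below every WT array, and -0.28, with overlapping arrays. Mthfd2, the mitochondrial dehydrogenase that is abundant in dividing cells, read 4114, 3821 and 4289 (WT) against 3802 and 3787 (REL). The REL arrays lay below every WT array by a small margin, the difference was -0.10 (SE 0.17), and a second probe set gave 0.42 with both REL arrays above WT. REL 1 lay below every WT array in 4 of the 5 folate genes, against 31.2% of all genes, and REL 2 in 1, against 34.7%.

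**Figure D3:**
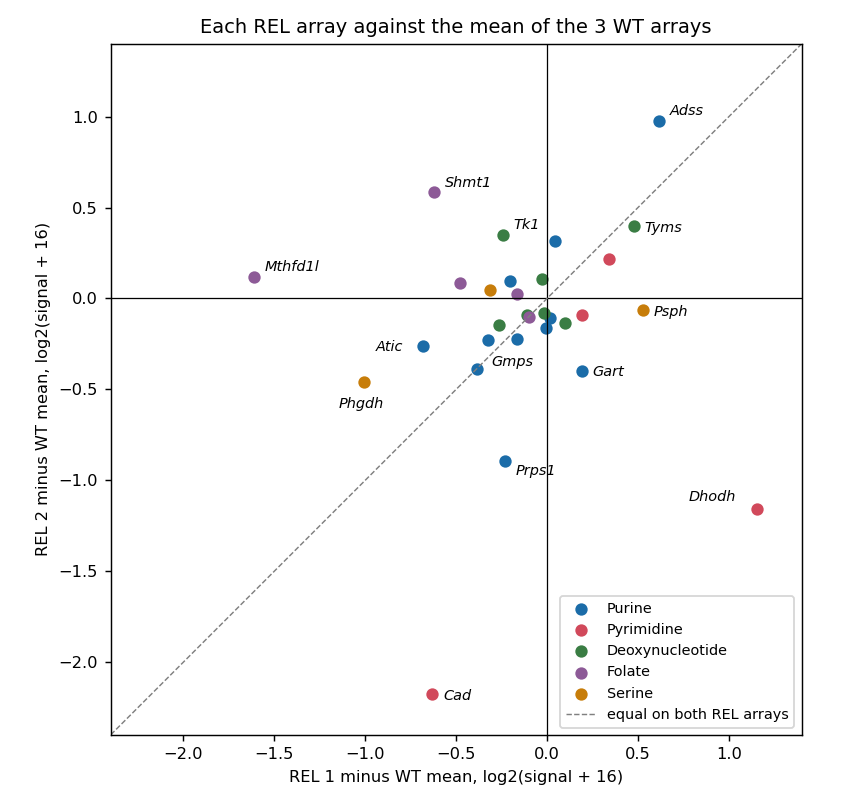
REL 1 (x axis) and REL 2 (y axis), each minus the mean of the 3 WT arrays in log2 units, for the 30 genes coloured by arm; the dashed line marks equal values. Points in the lower left (Phgdh, Cad, Atic, Gmps) are lower on both REL arrays, while Dhodh, Mthfd1l, Shmt1, Tk1 and Gart lie where the arrays point in opposite directions.

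The 2 REL arrays were read apart, a count added after the values were seen. REL 1 alone lay below every WT array in 12 of 30 members, against 31.2% of all genes, and above in 5, against 26.5%. REL 2 alone lay below in 11, against 34.7%, and above in 5, against 24.6%. In 5 members, Gart, Dhodh, Tk1, Shmt1 and Mthfd1l, the REL arrays lay outside the WT range on opposite sides, which is 16.7% of members and 14.3% of all genes. The median SD within groups was 0.25 log2 units for the members and 0.42 for all genes, and the members were also brighter, with a median percentile of mean signal of 83.5. By arm it ran from 0.15 in the deoxynucleotide arm to 0.46 in the pyrimidine arm.

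Most of these genes have several probe sets, and these did not always point the same way. Of 71 single-gene probe sets 67 passed the filter. REL lay below every WT array in 18 of the 67 (26.9%), against 13.5% of all probe sets past the filter, and above in 3 (4.48%), against 10.4%. Probe sets of 1 gene are not independent, and the 18 include 3 of Phgdh and 2 each of Cad, Paics and Prps2. Of the 20 genes with more than 1 such probe set, all pointed one way in 9 (Cad, Dhodh, Gart, Mthfd1, Paics, Phgdh, Prps2, Psat1 and Rrm1, each lower) and in both directions in 11. Among the 9, the brightest Dhodh probe set lay at -0.00082 and a Gart probe set at -0.03, both close to 0. Over all probe sets past the filter 54.4% lay below 0. The share of all genes whose probe sets point one way was not computed.

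**Figure D4:**
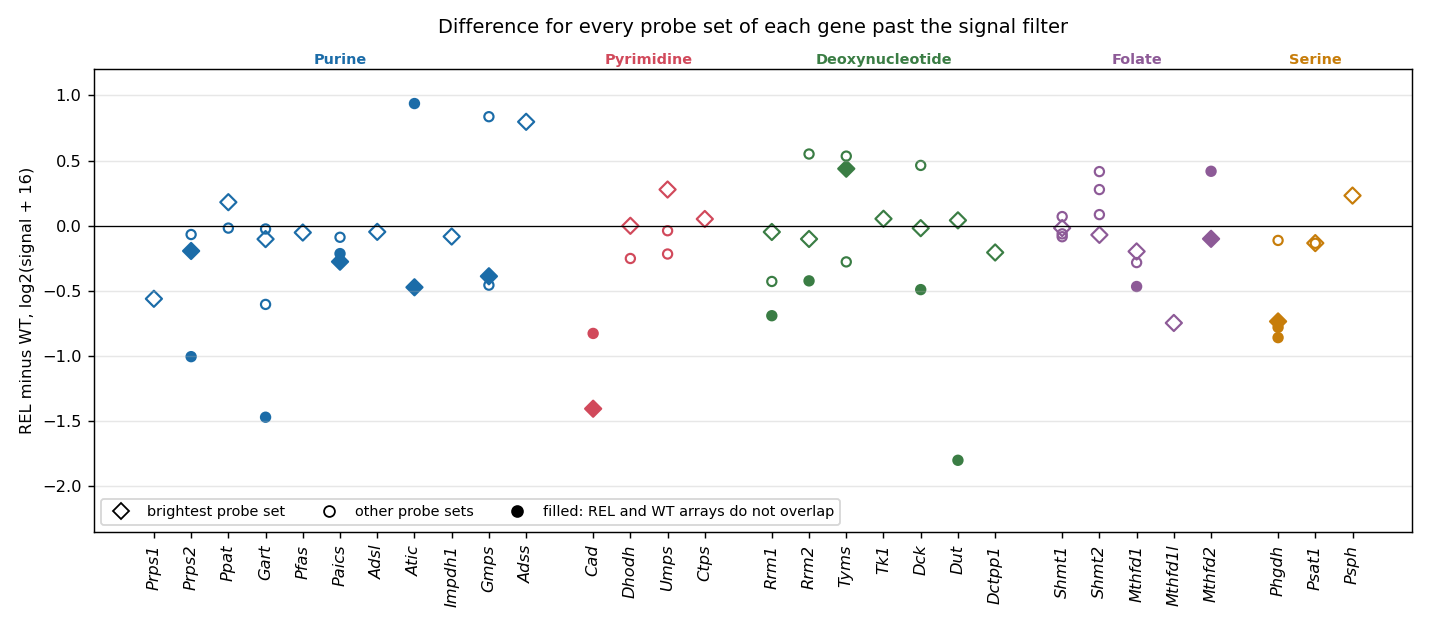
Difference between REL and WT (y axis, log2 units) for every probe set past the filter, by gene (x axis) and arm; diamonds are the brightest probe set of a gene, circles the others, and filled marks have no overlap between REL and WT arrays. The probe sets of Phgdh, Cad and Paics all lie below 0, while those of Atic lie at -0.47 and 0.94.

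The same pathways reach beyond these members, to salvage enzymes, nucleotide kinases and isozymes, and to further folate and methionine cycle genes. Of 72 such genes 56 passed the filter, 34 below 0 and 22 above, with a median of -0.09. None was called by limma. At an unadjusted p under 0.05, 3 were lower, where 4.99% of all genes were, and 0 were higher, where 3.24% were. The groups did not overlap in 10 with REL lower and in 3 with REL higher, against 14.3% and 9.53% of all genes.

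The 3 lower at that p were folate and methionine genes. Mtr, the methionine synthase that returns methyl-folate to the pool, read 347, 621 and 320 (WT) against 88.6 and 178 (REL), at -1.58 (SE 0.57, limma adjusted p = 0.486). Gcsh, the lipoyl carrier of the glycine cleavage system, stood at -0.79 (SE 0.28), and Sfxn3, a relative of the mitochondrial serine carrier, at -0.89 (SE 0.33). Fpgs, which adds the glutamate tail that keeps folates in the cell, stood at -1.02 (SE 0.56) without overlap. Mtfmt, which formylates the mitochondrial initiator methionine, stood at 0.67 (SE 0.39) with both REL arrays above WT.

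Of 21 salvage genes past the filter 14 lay below 0, against 56.8% of all genes, and 7 above, with a median of -0.09. The groups did not overlap in 3 with REL lower and in 1 with REL higher, against 14.3% and 9.53% of all genes. Among the 5 salvage genes with the smallest p-values the balance differed: 1 lay lower in REL and 4 higher, none past the threshold. Ada, the adenosine deaminase, stood at -0.38 (SE 0.18) and Dctd, the dCMP deaminase, at 0.81 (SE 0.49), both without overlap. Nt5e, the cell surface nucleotidase CD73, stood at 1.11 (SE 0.56) and Ampd2, an AMP deaminase, at 0.89 (SE 0.51), both with overlapping arrays. Gda, the guanine deaminase, stood at 1.67 (SE 1.02), also with overlapping arrays. It read 1.17, 14.4 and 16.9 (WT) against 357 and 1.97 (REL). Only REL 1 was above the filter level of 23.1, so Gda passed the filter and stood higher through REL 1 alone. Among kinases and isozymes Dtymk, which makes dTDP, stood at -0.25 (SE 0.15) and the nucleoside diphosphate kinase Nme1 at -0.18 (SE 0.15), lower without overlap, while its mitochondrial relative Nme4 stood at 0.89 (SE 0.54), higher without overlap. Ctps2, the second CTP synthase, at -0.89 (SE 0.52), and Nme2, at -0.17 (SE 0.14), had overlapping arrays.

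Replication genes gave a point of comparison for the deoxynucleotide arm. Of 20 such genes 16 lay below 0, against 56.8% of all genes, with a median of -0.24, and 0 were called by limma. The groups did not overlap in 5, each with REL lower, against 14.3% of all genes. Prim1, a primase subunit (-0.54, SE 0.20), and Mcm6, a helicase subunit (-0.38, SE 0.17), were the 2 lower at an unadjusted p under 0.05, against 4.99% of all genes. The other primase subunit Prim2 stood at -0.53 (SE 0.25), Rfc4, a subunit of the clamp loader, at -0.32 (SE 0.19) and Mcm5 at -0.24 (SE 0.15). The proliferation marker Mki67 read 8930, 10404 and 10863 (WT) against 9007 and 10194 (REL), so its REL arrays lay within the WT range.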

How the data were processed

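Germinal centre B cell RNA from 5 samples (3 WT, 2 REL) was amplified with the NuGEN Ovation system and hybridised to single-colour Affymetrix arrays, 1 per sample, per the labels' protocols. The authors deposited linear signal intensities for 45101 probe sets, computed with MAS5 according to the submitters' processing notes. MAS5 scores each array alone, so dim signals vary widely. Of these probe sets 34958 had 1 gene symbol in the platform annotation and were used, while 932 had several and 9211 had none listed. Signals were taken as log2(signal + 16), which shrinks the differences of dim genes. The dimmest 40% of probe sets by their mean were removed. The brightest probe set of each gene entered limma (version 3.58.1, R version 4.3.3), using lmFit and then eBayes with trend, and p-values were adjusted by Benjamini-Hochberg over 12082 genes (degrees of freedom: 3 residual, 6.84 prior). The code was tested on simulated data. The number of arrays limits the precision.

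The members, lists and tests were chosen with earlier results of these data known, so counts and medians over them are descriptions and no set test was run. Signals of every array are given for members whose groups do not overlap or whose unadjusted p is under 0.05, for the smallest p of each other arm, and for further members chosen after their values were seen. Of the pathway lists up to 5 genes each are named by smallest p, and Mki67 was chosen in addition after its values were seen. RefSeq promoter windows were searched for motifs with Python 3.11.15.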

Additional observations from a re-analysis of the deposited data

How the results depend on the processing

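No member was called under any of the 19 alternatives. These include leaving out each array with the probe sets chosen anew and again with them kept. Of the 30, 10 (Adss, Cad, Dctpp1, Gmps, Paics, Phgdh, Prps1, Prps2, Tyms and Umps) kept their direction in all that could be run for them. Some came close to 0: with the mean of probe sets Gmps was at -0.0026 and Umps at 0.0072. With median centring Prps2 was at -0.024 and Dctpp1 at -0.036. The number of genes called over the whole array was 1 and became 0 with a pseudocount of 1 or 64, no filter, a 60% filter, the mean of probe sets or no mean-variance trend, 2 with quantile normalization, 3 with median centring and 18 with the replicate number as a block. Leaving out 1 array gave 0 to 8. The block was not used as a pairing, because WT and REL samples share a number alone: deviations from the group means correlated at -0.042 for number 1 and -0.018 for number 2. With the block Phgdh stood at -0.69 (limma adjusted p = 0.209) and Cad at -1.35 (0.617). No REL array shares the number of WT 3, so WT 3 adds nothing to these differences, which equal those without WT 3.

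Median centring moved the median of the members to 0.093 and that of the purine, deoxynucleotide and serine arms to 0.067, 0.15 and 0.036, while the distance of the members from the median of all genes remained -0.01. It left 1 member (Cad) at an unadjusted p under 0.05, 2 with REL below every WT array and 3 above. With the 60% filter 28 members were tested and 0 lay above, since Tyms and Impdh1 were removed. With the mean of probe sets 1 member, Adss, was higher at an unadjusted p under 0.05. When 1 WT array was left out, Phgdh was lower at that p each time, Cad lower without WT 1 and Adss higher without WT 2. With any 1 array left out, the members with REL below every WT array numbered 7 to 13 (13 without WT 1) and above 2 to 5. Fewer arrays make non-overlap easier for any gene. Without REL 1 it held for 34.7% of all genes lower and 24.6% higher, and without REL 2 for 31.2% and 26.5%. The shares without 1 WT array are not given here, so the 13 is not set against all genes. With 1 array left out the purine median ran from -0.22 to -0.070 and the pyrimidine from -0.62 to 0.27. The folate median ran from -0.48 to 0.083 and the serine from -0.31 to -0.066, each folate and pyrimidine extreme resting on 1 REL array.

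Most members that turned sign lay near 0, but Mthfd1l (-0.75) turned without REL 1 and Atic (-0.47) with the mean of probe sets. With median centring Gart was at 0.067, Pfas 0.12, Adsl 0.12, Impdh1 0.086, Dhodh 0.17, Rrm1 0.12, Rrm2 0.068, Dck 0.15, Shmt1 0.15, Shmt2 0.10, Mthfd2 0.069 and Psat1 0.036. With quantile normalization Dhodh was at 0.00088, Rrm1 at 0.010 and Dck at 0.063, and with a pseudocount of 64 Dhodh was at 0.057. With the mean of probe sets Atic was at 0.23, Rrm2 at 0.0083, Dut at -0.88, Shmt2 at 0.18 and Mthfd2 at 0.16. With the block Ppat was at -0.035, Adsl 0.020, Impdh1 0.19, Dhodh 0.045, Dut -0.067 and Mthfd1 0.0038. Leaving out 1 array gave ranges of -0.035 to 0.46 for Ppat, -0.40 to 0.19 for Gart, -0.31 to 0.22 for Pfas, -0.12 to 0.020 for Adsl, -0.39 to 0.19 for Impdh1, -1.16 to 1.15 for Dhodh, -0.092 to 0.19 for Ctps, -0.11 to 0.0083 for Rrm1, -0.24 to 0.35 for Tk1, -0.14 to 0.10 for Dck, -0.067 to 0.15 for Dut, -0.62 to 0.59 for Shmt1, -0.20 to 0.036 for Shmt2, -0.48 to 0.083 for Mthfd1, -1.61 to 0.12 for Mthfd1l, -0.31 to 0.045 for Psat1 and -0.066 to 0.53 for Psph. The cause of these changes was not tested beyond the arrays or probe sets each setting leaves out. A lone REL array was assumed to vary like the other group.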
